A study of Mus musculus with 2 samples.

Results

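The basal keratins Krt5, Krt14, Krt15 and Krt17 were described in organoids grown from mouse urothelium, the lining of the bladder. These 4 genes were taken by symbol from the 31053 genes in the tables, and each was present in both libraries. They were followed in kept cells, which had more than 800 genes detected and a mitochondrial share of UMIs no higher than 12%. A UMI (unique molecular identifier) marks a captured RNA molecule, so that amplified copies are counted as a single molecule.

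The organoids came from wild-type C57BL/6 mice 8 to 10 weeks old and were profiled by droplet single-cell RNA sequencing with 3′ chemistry. Proliferative organoids (P) had been kept in complete medium. Differentiated organoids (D) had first been grown in complete medium and then moved to medium without EGF, LY2157299 (which blocks the TGF-β receptor), Noggin, WNT3A and RSPO1. The cultures were started from unsorted urothelial cells in Matrigel, and the labels do not say how many cultures or mice entered each library. With 1 library per condition there is no replicate check: no p-value is given, and each interval below is a 95% interval that covers counting error only.

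Keratins are the intermediate filament proteins of epithelia, and a filament is built from pairs of a type I and a type II keratin. In stratified epithelia KRT5 (type II) pairs mainly with KRT14 (type I) in the cells that rest on the basement membrane. KRT15 is a type I keratin of basal cells that is also known from hair follicle stem cells, and KRT17 is a type I keratin that is induced in wounded or activated epithelium. In the mouse bladder, as the paper describes it, basal cells carry KRT5 and a fraction of them KRT14. The transcription factor TRP63 is a marker of basal cells. Intermediate cells carry KRT5 together with uroplakins, the membrane proteins of the urothelial plaque. The umbrella cells at the lumen carry high levels of uroplakins. Squamous genes such as filaggrin (Flg) and involucrin (Ivl) belong to the terminal programme of cornified epithelia. The class named after them below is a rule on transcript counts and not a cell type.

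In GRCm38, all 4 genes lie on the minus strand and are annotated as protein coding. Krt5 (ENSMUSG00000061527) lies at chr15:101707070-101712898. The type I genes lie near each other on chromosome 11, with Krt15 (ENSMUSG00000054146) at chr11:100131758-100135928, Krt14 (ENSMUSG00000045545) at chr11:100203162-100207548 and Krt17 (ENSMUSG00000035557) at chr11:100256217-100261029. Their main transcripts code for 580 (Krt5), 484 (Krt14), 456 (Krt15) and 433 (Krt17) amino acids.

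How well these genes can be told apart by short reads depends on how alike they are, so the end of the rod domain, the best conserved stretch, is shown for each member. The 30 bases code for the helix termination motif and were read from the GENCODE transcripts of GRCm38, 5′ to 3′ on the coding strand. Capitals mark bases that differ from Krt14. The stretches are at chr11:100204113-100204142 (Krt14), chr11:100257438-100257467 (Krt17), chr11:100132996-100133025 (Krt15) and chr15:101708881-101708910 (Krt5), all within coding exons on the minus strand.
Krt14: acctaccgccgtctgctggagggagaggac
Krt17: acctaccgccgtctgctggagggagaggaT
Krt15: acTtaccgGAACctgctCgagggCCaggaT
Krt5: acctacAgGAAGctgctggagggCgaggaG
Of the 30 bases, Krt17 shares 29 with Krt14, Krt5 shares 23 and Krt15 shares 21.

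Over whole coding sequences, Krt14 and Krt17 were the closest pair, with 84.1% of aligned bases identical, against 74.2% for Krt14 with Krt15, 75.3% for Krt15 with Krt17, and 65.2% to 66.9% for Krt5 with the others. Krt14 and Krt17 share an exact run of 71 bases in exon 6 of each gene (chr11:100204114-100204184 and chr11:100257439-100257509), which is printed because it lies 319 and 312 bases from the transcript ends, where a 3′ assay reads.
Krt14 and Krt17, shared run: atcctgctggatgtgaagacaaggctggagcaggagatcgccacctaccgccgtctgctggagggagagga
The longest run in coding sequence is 50 bases for Krt15 with Krt17 and 28 for Krt14 with Krt15, and Krt5 shares at most 16 with any of the others. A read confined to the run of 71 bases cannot be given to Krt14 or Krt17 alone. If such reads were assigned, the Krt17 values below are uncertain in cells rich in Krt14. If they were discarded, both genes were counted low and Krt17 gained nothing from Krt14. Which of these holds for the deposited counts was not tested.

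The deposited tables held 8194 barcodes in P and 6975 in D, of which 6818 and 4896 were kept, with medians of 3405.5 and 3227.5 UMIs a cell. Only 6 barcodes of kept cells occurred in both libraries. The ribosomal protein genes accounted for 37.5% of the P and 21.4% of the D UMIs. Levels are given as UMIs per 1000000 UMIs (CPM), and the median gene stood 0.42 (log2) higher in D on this scale, taken over the 8939 genes that had 100 UMIs or more in each of them. Since a 3′ assay counts a molecule irrespective of its length, levels of different genes were set side by side without division by length. Of the 16 fibroblast, leukocyte and endothelial markers, Col1a2, Tyrobp, Cdh5 and Kdr were listed at 0 UMIs in both libraries, while Dcn held 40 UMIs in P and 1234 in D, Laptm5 7 and 400, Pecam1 60 and 50 and Egfl7 78 and 17. None of the other 8 had more than 19 UMIs in a library.

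Krt15 was the basal keratin that differed most between the conditions, and it was higher in D. P held 54022 Krt15 UMIs (2025 CPM, interval 2008 to 2042), and D held 149115 (7344 CPM, 7306 to 7381). The ratio was 3.63-fold (log2 1.86, 1.84 to 1.87). Relative to the median gene it was still 1.44 (log2), and among all genes Krt15 moved from rank 88 by UMIs in P to rank 9 in D.

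Krt14 was also higher in D, by a smaller step. It held 47565 UMIs in P (1783 CPM, 1767 to 1799) and 75867 in D (3736 CPM, 3710 to 3763), a ratio of 2.10-fold (log2 1.07, 1.05 to 1.08). Relative to the median gene the log2 ratio was 0.65, which is under 2-fold. The paper reports another direction for Krt14 from bulk RNA sequencing of paired P and D cultures. There it lists Krt14 and Krt5 among the basal markers lowered in D. Elsewhere it describes the decrease of basal markers as modest, with KRT14 and KRT5 protein still found in D. The cause of the difference for Krt14 was not tested. For Krt5 the direction here rests on the scaling, as given below.

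Krt5, the type II partner, was at nearly the same level. P held 94287 UMIs (3534 CPM, 3511 to 3556) and D held 80280 (3954 CPM, 3926 to 3981), a log2 ratio of 0.16 (0.15 to 0.18). This direction rests on the scaling, because the log2 ratio was -0.26 relative to the median gene and -0.17 when mitochondrial and ribosomal protein genes were left out of the totals.

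Krt17 was scarce in both conditions. It held 1310 UMIs in P (49.1 CPM, 46.5 to 51.8) and 890 in D (43.8 CPM, 41.0 to 46.8), a log2 ratio of -0.16 (-0.29 to -0.04). Without the 5% of cells with the most UMIs in each library that ratio was -0.0044, so no direction is given for Krt17.

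**Figure D1:**
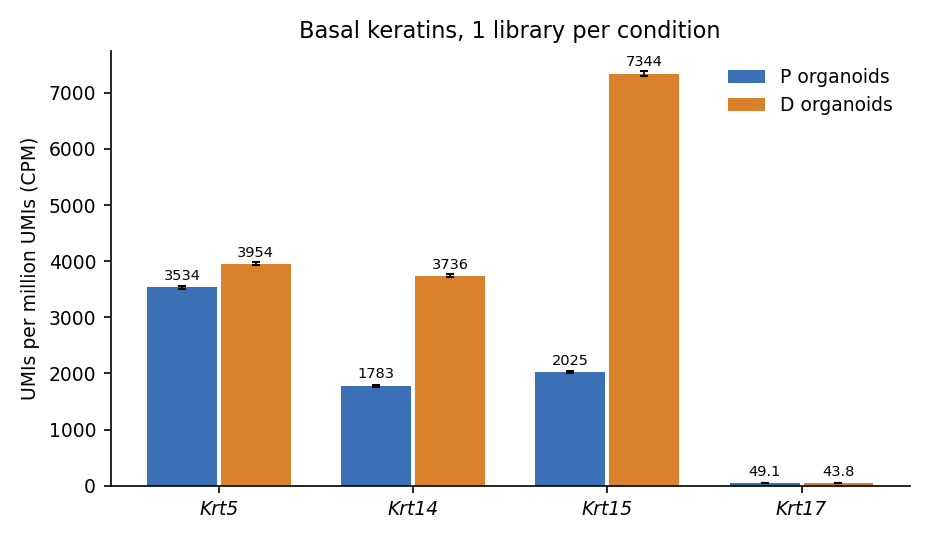
UMIs per 1000000 UMIs (CPM, y axis) of each basal keratin (x axis) summed over the kept cells of P (blue) and D (orange), 1 library each, with 95% Poisson intervals for counting error only. Krt15 stands at 2025 CPM in P and 7344 in D, Krt14 at 1783 and 3736, while Krt5 and Krt17 are near the same height in both.

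By the rule that calls a gene higher at a ratio of at least 2-fold, 2 of the 4 basal keratins were higher in D and 0 of 4 in P. Of the 10719 genes that reached 100 UMIs in P and D together, 13.5% were called higher in D and 4.73% higher in P. Relative to the median gene, and without mitochondrial and ribosomal protein genes, 1 of 4 was higher in D, which was Krt15.

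The 4 genes together stood at 7390 CPM in P and 15077 in D, which was 54.1% and 59.9% of all keratin UMIs. Their mix differed more than their share of the keratins. Krt5 made up 47.8% of basal keratin UMIs in P and 26.2% in D, whereas Krt15 went from 27.4% to 48.7%. Krt14 held 24.1% and 24.8%, and Krt17 0.664% and 0.291%. For each Krt5 UMI there were 1.09 UMIs of the basal type I keratins in P and 2.81 in D.

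Over all keratins of the tables, type I outweighed type II by 1.28 in P and by 1.98 in D. Among all keratins Krt5 came first in P, ahead of Krt19 (2764 CPM), a type I keratin found in all urothelial layers, then Krt15 and Krt14. In D the order was Krt15, Krt19 (4716 CPM), Krt5 and Krt14. The counting intervals of neighbours in these orders did not overlap, but the spread between organoid cultures is not known.

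To compare cells at equal depth, each cell was thinned at random to 2100 UMIs, which left out 180 shallower cells in P and 479 in D and kept 6638 and 4417. At least 1 of the 4 keratins was found in 98.9% of cells in P and 99.5% in D. Krt5 was near ubiquitous, with a UMI in 97.7% of cells in P (97.4 to 98.1) and 96.1% in D (95.5 to 96.6). Before thinning these shares were 98.9% and 98.1%.

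Krt15 was found in 73.4% of cells in P (72.3 to 74.4) and 92.9% in D (92.1 to 93.6), and before thinning in 79.8% and 95.9%. The typical cell changed with it: the median was 2 Krt15 UMIs in P and 14 in D, and cells with 20 or more were 1.78% and 36%.

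Krt14 was found in 62.5% of cells in P (61.3 to 63.6) and 70.5% in D (69.1 to 71.8), and before thinning in 69.3% and 80.5%. Its median was 2 UMIs in both libraries, so the higher level in D did not come from the typical cell. It came from the upper part of the distribution, where the upper quartile was 7 UMIs in P and 15 in D and cells with 20 or more were 1.81% and 19.7%. Krt14 was also the most uneven of the abundant members, with a variance over mean of 6.84 in P and 16.1 in D, against 2.21 and 3.33 for Krt5 and 6.36 and 9.14 for Krt15.

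Krt17 was found in 6.10% of cells in P (5.54 to 6.70) and 4.46% in D (3.87 to 5.11), and before thinning in 8.45% and 6.00%. Most such cells held few molecules, and 0.271% of cells in P and 0.543% in D held 5 to 19. No cell type without keratins was at hand to measure free RNA. In P 0 of 6638 cells, and in D 0 of 4417, held at least 2 genes of either the leukocyte or endothelial list. Taken as 3 cells over the cells examined, a count of 0 allows shares up to 0.0452% and 0.0679%. The fibroblast list gave 0 such cells in P and 3 in D, and all 3 had Krt5 UMIs. The part of free RNA in cells with few keratin UMIs was not tested.

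**Figure D2:**
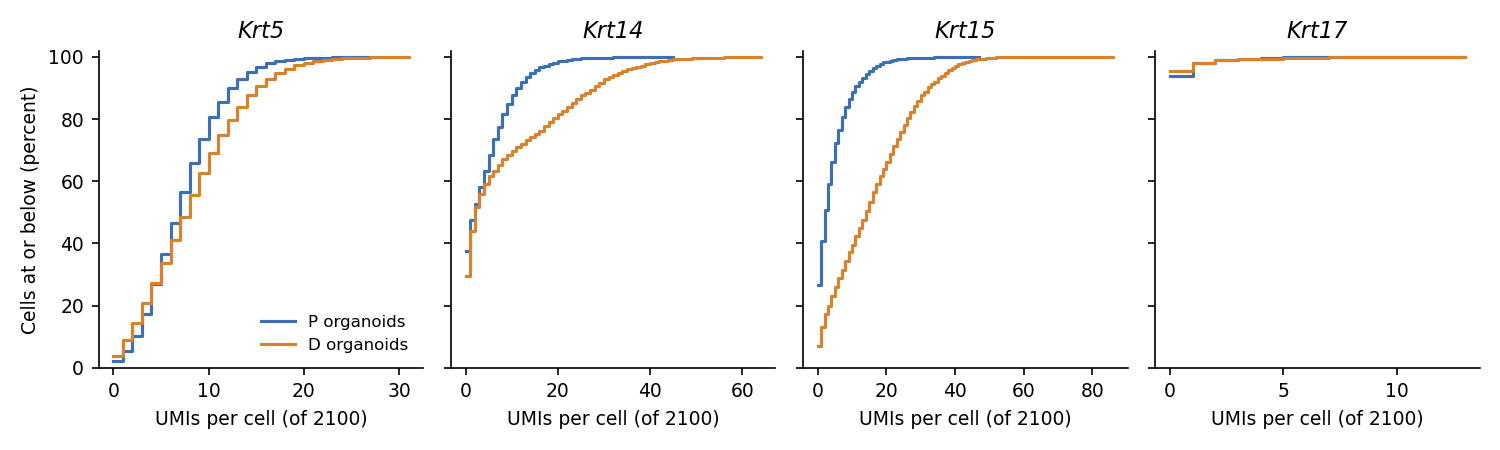
Percent of cells (y axis) with at most the given number of UMIs of each basal keratin (x axis, of 2100 UMIs per cell) in P (blue, 6638 cells) and D (orange, 4417 cells). The whole Krt15 curve lies to the right in D, with medians of 2 and 14 UMIs, whereas the Krt14 curves share a median of 2, with 37.5% of P and 29.5% of D cells at 0, and part widely in the upper range.

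Most cells held several basal keratins. In P, 44.9% of cells had UMIs of 3 of the 4 genes, 36.8% of 2 and 12.4% of 1. In D, 61% had 3, 31.8% had 2 and 3.21% had 1. All 4 were found in 4.72% and 3.53%.

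Krt17 was found almost only in cells with Krt14. Of the cells with Krt17, 96.8% in P and 96.4% in D also had Krt14. The other way round, Krt17 was present in 9.45% of cells with Krt14 and 0.522% of cells without it in P, and in 6.10% and 0.537% in D. Cells with Krt17 held on average 8.00 Krt14 UMIs in P and 22.6 in D, against 3.94 and 8.10 in cells without. This pair is also the one with the shared run of 71 bases printed above.

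Krt14 and Krt15 ran in opposite directions across the cells of D, but not over most of the range in P. Spearman's rho between them was 0.06 over 6638 cells in P and -0.44 over 4417 cells in D, as a description, since the cells of a library share its preparation and were all thinned to the same depth. The mean of Krt15 in D was 19.8 UMIs in cells without Krt14, 19.6 with 1 to 4 Krt14 UMIs, 13.5 with 5 to 19 and 5.88 with 20 or more. In P the same means were 4.43, 4.02, 4.20 and 2.49, and the last of these rests on 120 cells. In P Krt15 was found in 77.8% (76.5 to 79.1) of cells with Krt14 and in 65.9% (64.0 to 67.8) of cells without it.

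**Figure D3:**
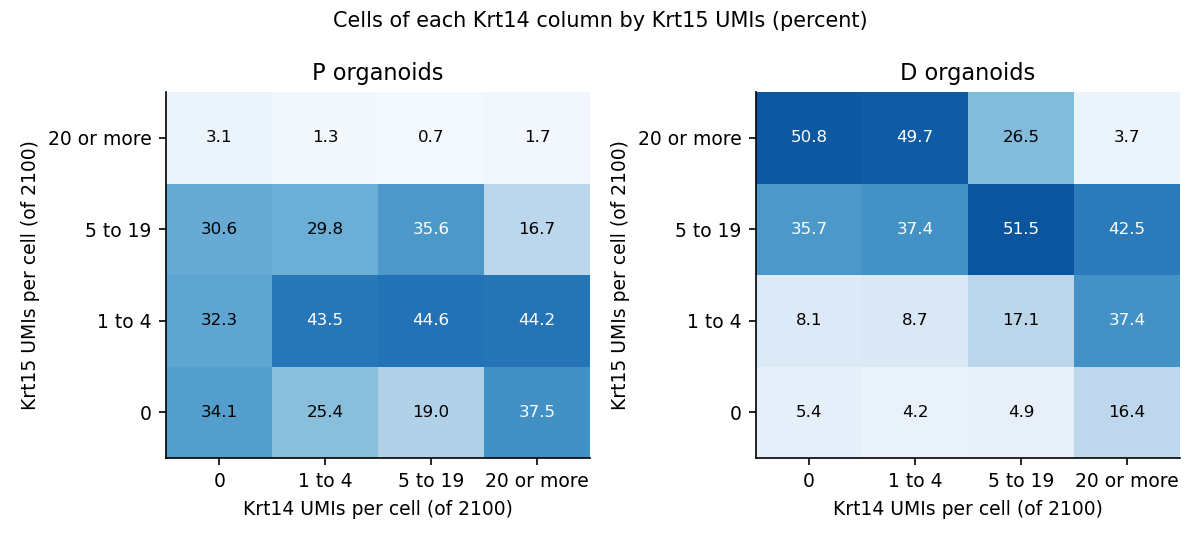
Cells of each library sorted into columns by Krt14 UMIs (x axis) and rows by Krt15 UMIs (y axis), both of 2100 UMIs per cell, where each field gives the percent of the cells of its column. In D, 50.8% of cells without Krt14 held 20 or more Krt15 UMIs against 3.67% of cells with 20 or more Krt14 UMIs, whereas in P no column has more than 3.05% of its cells there.

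The opposition was stronger among D cells without uroplakin transcripts. In those 2088 cells rho was -0.67, and mean Krt15 fell from 25.5 UMIs (25 to 26.1) in the 292 cells without Krt14 to 5.79 (5.62 to 5.96) in the 765 cells with 20 or more Krt14 UMIs. Mean Krt5 in the same cells was 8.82 and 10.6. The 632 Trp63-positive cells of D gave a rho of -0.60, the 2329 uroplakin-positive cells -0.18, and the 1730 Trp63-positive cells of P 0.07. These subsets were chosen after the pattern over all cells had been seen.

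D cells with 20 or more Krt14 UMIs differed from other cells in further ways. They were uroplakin-positive in 12.2% of cases, against 77.6% of D cells without Krt14, and Trp63-positive in 25% against 6.21%. They also held more contractile transcripts (732 against 157 CPM over the 7 genes of that list) and more transcripts of the fibroblast list (190 against 4.02 CPM over 6 genes). The fibroblast signal was Dcn, which held 1234 UMIs in D, whereas the collagen genes Col1a1, Col1a2 and Col3a1 held 10, 0 and 19. In the contractile list, Tpm2 held 5464 UMIs in D and 6570 in P, Acta2 837 and 28, Myl9 92 and 0, and Tagln 35 and 8, while Myh11 and Des were at 0 in D and Cnn1 at 3. The part of these transcripts in the Krt14 pattern was not tested. Without the 514 D cells that had a Dcn or Acta2 UMI, rho between Krt14 and Krt15 was -0.38.

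Over all cells, Krt5 followed Krt14 in D but not in P. Spearman's rho was 0.38 in D and 0.02 in P. Among uroplakin-negative cells rho was lower in D, at 0.14, and it was 0.01 in P. Among uroplakin-positive cells it was 0.33 in D and 0.31 in the 159 such cells of P. Mean Krt5 in D was 6.06 UMIs in cells without Krt14 and 10.7 in cells with 20 or more, while in P the means were 7.14 and 8.34. With Krt15, Krt5 gave a rho of 0.16 in P and -0.01 in D.

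Cells were then grouped by transcripts that are no keratins. A cell counted as Trp63-positive with at least 1 Trp63 UMI, as uroplakin-positive with at least 1 UMI of 5 uroplakins, and as squamous-positive with at least 3 UMIs of 13 squamous genes, all after thinning. In P, 26.1% of cells were Trp63-positive, 2.40% uroplakin-positive and 15.1% squamous-positive. In D these shares were 14.3%, 52.7% and 6.25%. Most cells above the Trp63 minimum sat right at it (76.4% in P and 87.0% in D with a single UMI), so Trp63-negative cells include many in which the transcript was missed at this depth.

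Krt14 was higher in Trp63-positive cells of both libraries, and in D it had the largest ratio of the 4 members. Trp63-positive cells held a mean of 5.51 Krt14 UMIs against 3.73 in Trp63-negative cells of P (log2 0.57, 0.53 to 0.60) and 13.9 against 7.89 in D (0.82, 0.78 to 0.85). The size of this Krt14 ratio depended on the processing. Without thinning it was 0.40 in P and 0.43 in D, and thinned to 1500 UMIs 0.53 and 0.64. With a minimum of 2 Trp63 UMIs it was 0.71 and 0.91. Krt5 differed little, by 0.05 (0.02 to 0.08) in P and 0.31 (0.27 to 0.35) in D. Krt15 was 4.59 against 4.07 UMIs in P (0.17, 0.13 to 0.21) and 14.8 against 15.8 in D (-0.09, -0.12 to -0.06). The Krt17 ratio in P was 0.52 (0.29 to 0.75), which overlaps that of Krt14, and it was -0.15 (-0.58 to 0.26) in D or -0.80 without cells that had a Dcn or Acta2 UMI.

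Cells of P with more Trp63 UMIs held more Krt14, with means of 3.73, 5.17, 6.51 and 7.01 UMIs at 0, 1, 2 and 3 or more Trp63 UMIs. Krt15 in the same cells went from 4.07 to 4.98 and Krt5 from 7.17 to 6.88. None of the 4 members was at least 2-fold higher in Trp63-positive cells in either library, where 0.24% of 7908 genes in P and 0.558% of 7528 genes in D were.

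Uroplakin-positive cells held less Krt14 and Krt17, moderately less Krt5, and no less Krt15. In D the 2329 uroplakin-positive cells held a mean of 3.26 Krt14 UMIs against 14.9 in the 2088 negative cells, which is 4.56-fold lower (log2 -2.19, -2.22 to -2.15). Krt5 was 6.58 against 10.1 (-0.61, -0.64 to -0.58). Krt15 was 17.0 against 14.2 (0.26, 0.24 to 0.28), and Krt17 was 0.0253 against 0.176 (-2.80, -3.22 to -2.40).

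In the 159 uroplakin-positive cells of P the directions were alike. Krt14 was 1.98 against 4.25 UMIs (-1.10, -1.26 to -0.94), Krt5 4.99 against 7.30 (-0.55, -0.65 to -0.45) and Krt15 4.57 against 4.20 (0.12, 0.01 to 0.23). Krt17 rested on 6 UMIs in these cells (-1.48, -2.94 to -0.35). With a minimum of 2 uroplakin UMIs, the Krt15 ratio in P turned to -0.18. The Krt5 ratio in P went to -1.15, the Krt14 ratio to -0.95 and the Krt17 ratio to -0.78. In D the same minimum gave -2.83 for Krt14, -0.84 for Krt5, -2.86 for Krt17 and only 0.09 for Krt15. Without cells that had a Dcn or Acta2 UMI, the Krt15 ratio in D was 0.15. In P, 79.2% of the uroplakin-positive cells held a single uroplakin UMI.

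By the 2-fold rule, 2 of the 4 members were lower in uroplakin-positive cells of each library, Krt14 and Krt17, where 11.7% of 7908 genes were lower in P and 2.59% of 7524 in D. With the minimum of 2 uroplakin UMIs both calls were lost in P and Krt5 was called instead. The uroplakin-positive cells were also deeper before thinning, with a median of 3688 UMIs against 3040.5 in D and 3928 against 3439 in P. The other classes differed in depth as well. Squamous-positive cells had medians of 4216 against 3329 in P and 3938.5 against 3362 in D. Trp63-positive cells were shallower, with 3186 against 3545 in P and 3103 against 3446 in D.

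Within D, the steps with uroplakin transcripts set the 3 abundant members apart. Over cells with 0, 1, 2 to 4, 5 to 9 and 10 or more uroplakin UMIs, mean Krt14 was 14.9, 6.34, 2.15, 1.26 and 1.14. Mean Krt5 was 10.1, 8.93, 6.59, 4.50 and 2.69. Mean Krt15 was 14.2, 18.3, 18.0, 15.2 and 11.9.

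Krt14 thus dropped at the lowest uroplakin counts, Krt5 declined step by step, and Krt15 was highest in cells with 1 to 4 uroplakin UMIs. In the 250 cells with 10 or more, Krt15 was still found in 88.8% (84.2 to 92.4), Krt5 in 78.0% (72.3 to 83.0) and Krt14 in 46.0% (39.7 to 52.4). Krt17 had 0 UMIs in those 250 cells. There were 0.955 Krt15 UMIs for each Krt14 UMI in cells without uroplakin transcripts and 10.4 in cells with 10 or more, so the members did not keep a fixed ratio to each other across these cells.

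**Figure D4:**
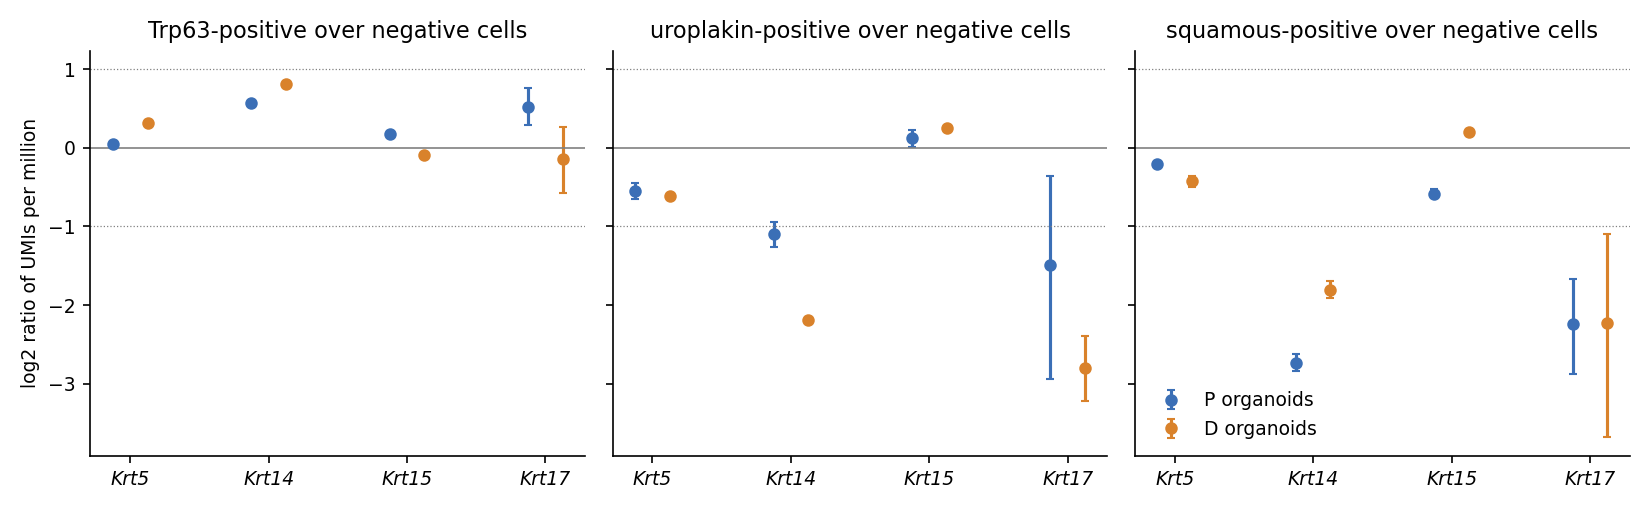
The log2 ratio of UMIs per 1000000 (y axis) of each basal keratin (x axis) in cells positive over cells negative for Trp63 (left), uroplakins (middle) and squamous genes (right), in P (blue) and D (orange), with 95% intervals for counting error only and dotted lines at 2-fold. Krt14 and Krt17 lie below -1 in the middle and right panels, while Krt15 lies near 0 except at -0.58 in squamous-positive cells of P.

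Squamous-positive cells also held little Krt14 and Krt17. In P, the 1001 squamous-positive cells held 0.724 Krt14 UMIs on average against 4.81 in the 5637 others, 6.64-fold lower (log2 -2.73, -2.84 to -2.62), and the ratio was -2.13 without thinning. Krt15 was 2.96 against 4.43 (-0.58, -0.64 to -0.53), Krt5 6.40 against 7.39 (-0.21, -0.24 to -0.17) and Krt17 0.0250 against 0.118 (-2.24, -2.88 to -1.67).

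In D, the 276 squamous-positive cells held 2.62 Krt14 UMIs against 9.15 (-1.80, -1.91 to -1.70). Of these cells, 207 were uroplakin-positive and Trp63-negative, so this contrast overlaps with the uroplakin contrast. Krt5 was 6.23 against 8.36 (-0.42, -0.49 to -0.35), and Krt17 rested on 6 UMIs (-2.23, -3.68 to -1.09). Krt15 stood on the other side, with 17.8 against 15.5 (0.20, 0.16 to 0.24).

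The 13 squamous genes were not the same mix in both libraries. In P, Flg gave 27.9% of the list's UMIs and Ivl 17.7%, while in D Ivl gave 60.1% and Sbsn (suprabasin) 33.8%, and Flg a single UMI. Squamous-positive cells of D were also rich in uroplakins (2874 against 980 CPM). In D the class name thus stands mainly for cells with Ivl and Sbsn transcripts, and squamous differentiation of these cells was not tested. Without Ivl in the list, the Krt14 ratio in D was -1.20 and the Krt15 ratio 0.30.

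By the 2-fold rule, 2 of the 4 members, Krt14 and Krt17, were lower in squamous-positive cells of each library. The same was true of 10.3% of 7901 genes in P and 6.94% of 7526 in D.

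The steps with squamous transcripts in P had another order than those with uroplakins in D. Over cells with 0, 1 to 2, 3 to 9, 10 to 29 and 30 or more squamous UMIs, mean Krt14 was 5.47, 3.41, 0.728, 0.742 and 0.25. Mean Krt15 was 4.31, 4.69, 3.12, 2.05 and 0.583, and mean Krt5 was 7.27, 7.65, 6.78, 4.33 and 1.5. The last step holds only 12 cells, with 3 Krt14, 7 Krt15 and 18 Krt5 UMIs in all. Krt14 was again the first to fall, and here Krt15 fell as well.

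**Figure D5:**
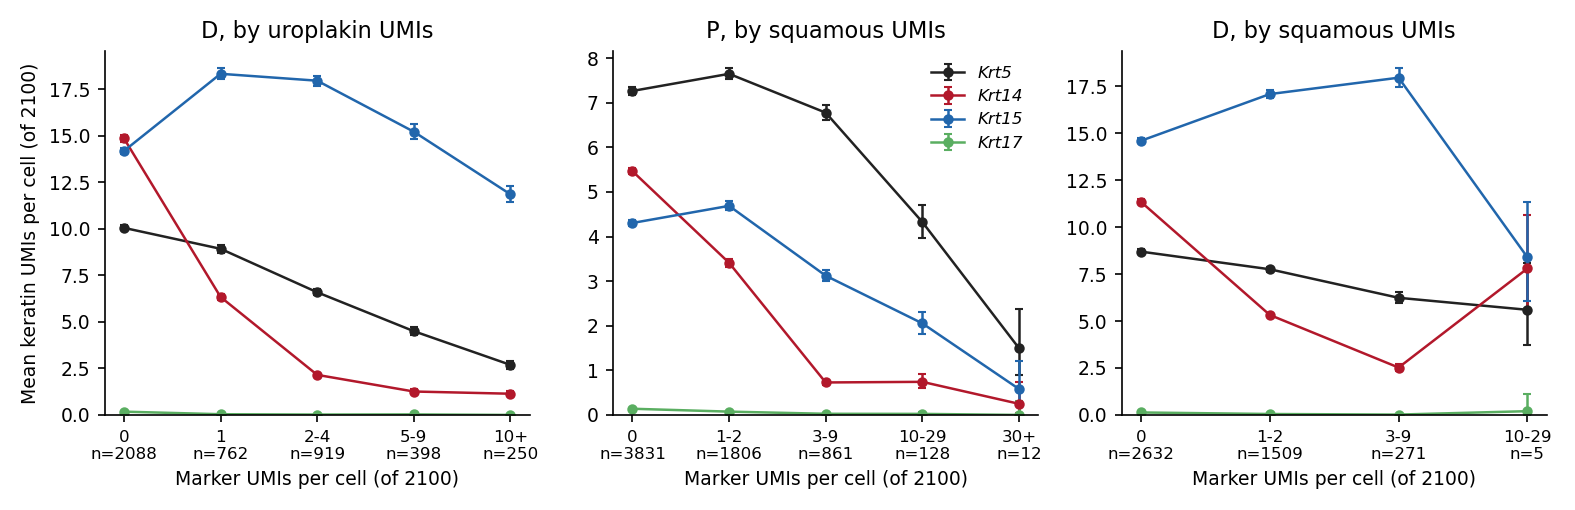
Mean UMIs of each basal keratin per cell (y axis, of 2100 UMIs, separate scales) against the number of uroplakin UMIs in D (left), squamous UMIs in P (middle) and squamous UMIs in D (right), with the number of cells under each step and 95% Poisson intervals for counting error only. In the left panel Krt14 drops from 14.9 to 2.15 by 2 to 4 uroplakin UMIs while Krt15 stays between 11.9 and 18.3, and in the middle panel all 3 abundant members end low; the last step of the right panel holds 5 cells.

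Cells in more than a single class were described where a combination had at least 50 cells. In P, the 64 cells positive for uroplakins and squamous genes but not Trp63 held 0.25 Krt14 UMIs, 3.05 Krt15 and 3.73 Krt5. In D, the 207 such cells held 1.69 Krt14, 16.9 Krt15 and 5.34 Krt5. The 1931 D cells with uroplakin transcripts alone held 3.18 Krt14, 16.9 Krt15 and 6.46 Krt5. The 50 D cells with squamous transcripts alone held 5.76 Krt14, 21.1 Krt15 and 9.1 Krt5. The 176 D cells with Trp63 and uroplakin but not squamous transcripts held 6.10 Krt14, 17.6 Krt15 and 9.33 Krt5, against 17.4, 13.5 and 10.2 in the 437 with Trp63 alone. Krt14 was the lowest of the 3 in every described combination with uroplakin or squamous transcripts, in P and in D. It was the highest in the D cells with Trp63 alone. In the 1597 D cells negative for all 3 classes it was 14.4, against 14.2 Krt15 and 10.1 Krt5. The counting intervals of Krt14 and Krt15 overlapped there.

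Cycling cells, taken as cells with at least 2 of 12 proliferation genes, numbered 345 in P and 11 in D. In P they held more Krt14 than other cells, 6.46 (6.2 to 6.74) against 4.07 UMIs, and Krt14 was found in 96.5% of them against 60.6%. Krt15 was 5.0 against 4.16, Krt17 0.203 against 0.0985, and Krt5 was 7.07 (6.79 to 7.36) against 7.25 (7.18 to 7.32).

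The genes whose cell-to-cell pattern was most like each member's were ranked by Spearman's rho over the thinned cells, among 1936 genes in P and 2585 in D. In D, Krt14 was closest to Col17a1 (0.46), the transmembrane collagen of hemidesmosomes, followed by Tpm1 (0.43), Htra1 (0.42), Ctsl (0.40) and Sfn (0.39). In P it was closest to Npm1 (0.44), Mt1 (0.42), Tmem176b (0.42), Mt2 (0.42) and Hspa8 (0.42).

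Krt15 was closest to Cbr2 (0.42), Krt4 (0.41), Cyp2f2 (0.36), Wfdc2 (0.34) and Gsta4 (0.32) in D. Krt4 is a type II keratin of the suprabasal layers of mucosal epithelia. In P the Krt15 values were lower, with Ifitm3 first at 0.29. Krt5 led with Hspb1 (0.22) in P and Sfn (0.35) in D, and Krt17 with Tmem176a (0.16) in P and Htra1 (0.28) in D.

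Other genes of basal cells, a list of 19 with transcription factors, adhesion genes and surface receptors, were compared with the keratins. Ngfr, a nerve growth factor receptor, was the gene of this list that was at least 2-fold lower in D (log2 -1.81). The median of the 19 was 0.10, against 0.41 over all genes tested and 0.61 over the 4 keratins. Trp63 itself stood at 149 CPM in P and 77.8 in D (-0.94), opposite to Krt14 and Krt15.

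Across cells the summed level of this list was higher where Krt14 was higher. In D it summed to 788 CPM in cells without Krt14 and 3073 in cells with 20 or more Krt14 UMIs. In P the same sums were 719 and 2738. In uroplakin-positive cells 9 of 18 genes tested were at least 2-fold lower in P and 12 of 17 in D. In squamous-positive cells these were 13 of 18 and 14 of 17. Of all genes tested, 11.7% in P and 2.59% in D were lower in uroplakin-positive cells, and 10.3% and 6.94% in squamous-positive cells. In Trp63-positive cells 0 of 17 were at least 2-fold higher in P and 2 of 16 in D. Over all genes tested those shares were 0.24% and 0.558%.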

How the data were processed

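Sequencing data of 2 libraries of mouse urothelial organoids (P and D, 1 each) were used. Per the labels, bcl2fastq 2.19.0 and Cell Ranger 3.0.2 were named in the submitters' processing notes, with build GRCm38. The authors deposited raw counts, whole-number UMIs per gene and barcode with no normalization. The kept cells followed the filter of the study (over 800 genes, at most 12% mitochondrial UMIs) and held 26681469 UMIs in P and 20305621 in D. That gave 6818 cells in P and 4896 in D, whereas admitting cells with exactly 800 genes would give 6826 and 4896. No doublet caller was run, and leaving out the 5% of cells with the most UMIs was an alternative instead.

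UMIs were summed per library or cell class and given per 1000000 UMIs. Exact Poisson, Clopper-Pearson and conditional binomial intervals (95%) cover counting error only. Cells were thinned to 2100 UMIs without replacement, with a fixed seed. Genes were called at 2-fold among those with at least 100 UMIs over the samples or classes compared. Computation used Python 3.11.15, NumPy 2.4.6, SciPy 1.17.1, pandas 2.3.3 and Matplotlib 3.10.9, and the ratio and thinning code was tested on simulated data. Coding sequences were aligned globally with Biopython 1.88, and identity was taken over aligned bases.

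The named genes are the members, the genes of the lists, and the 5 with the highest Spearman correlation with each member in each library, among genes found in at least 10% of cells. The members and lists were chosen with earlier results of these data known. The bins of uroplakin, Trp63 and Krt14 UMIs, the subsets for the correlation of Krt14 with Krt15, the squamous list without its most abundant gene, and leaving out cells with a Dcn or Acta2 UMI were chosen after seeing the data. Genes of the basal list that were at least 2-fold higher in D are not reported here.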

Additional observations from a re-analysis of the deposited data

Results flagged for a closer look

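Keratin UMIs were also present in the barcodes that the filter left out, 1376 in P and 2079 in D, and the comparisons above do not use them. Per 1000000 non-mitochondrial UMIs, the left-out barcodes of P held 3119 Krt5, 2339 Krt14, 1720 Krt15 and 50.7 Krt17, against 3756, 1895, 2152 and 52.2 in kept cells. Those of D held 2870 Krt5, 3041 Krt14, 4736 Krt15 and 31.9 Krt17, against 4257, 4023, 7908 and 47.2. Krt14 was the member that stood higher in left-out than in kept barcodes, and this was so in P.

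Krt15 went opposite ways in the 2 libraries in a pair of the class contrasts, each with a counting interval on its side of 0. Over Trp63-positive against negative cells its log2 ratio was 0.17 in P and -0.093 in D. Over squamous-positive against negative cells it was -0.58 in P and 0.20 in D, where the squamous list was made up of different genes in the libraries. With 1 library per condition these differences between the libraries were not tested.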

How the results depend on the processing

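Of 62 alternative values of the main results, 27 stayed within the counting interval of the value reported, 33 moved outside it or changed the count, and 2 changed direction; the cause was not tested. Both changes of direction concern the Krt5 ratio of D over P, which was -0.17 without mitochondrial and ribosomal protein genes and -0.26 with median ratio scaling. Under the same scalings, in that order, Krt14 was 0.73 and 0.65, Krt15 1.52 and 1.44 and Krt17 -0.50 and -0.59, and the number of basal keratins at least 2-fold higher in D was 1 under each. As a mean over cells Krt5 was 0.20, Krt14 1.12 and Krt15 1.90. With the stricter filter (over 1000 genes, at most 10% mitochondrial UMIs) Krt5 was 0.12, Krt14 1.19 and Krt15 1.84, and with the looser filter (over 500 genes, at most 20%) Krt14 was 1.02. Without the 5% of cells with the most UMIs Krt14 was 1.10, Krt15 1.89 and Krt17 -0.0044.

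For the 4 keratins summed, the Trp63 contrast was 0.23 in P and 0.29 in D, the uroplakin contrast -0.45 and -0.55, and the squamous contrast -0.73 and -0.31. In P the Trp63 contrast was 0.29 with a minimum of 2 UMIs and 0.17 without thinning, the uroplakin contrast -0.77 with a minimum of 2, and the squamous contrast -0.90 with a minimum of 5 and -0.47 without thinning. In D the Trp63 contrast was 0.23 when thinned to 1500 UMIs, 0.16 without thinning and 0.24 without the 5% of cells with the most UMIs. The uroplakin contrast in D was -0.68 with a minimum of 2, -0.57 thinned to 1500 and -0.57 without the deepest cells. The squamous contrast in D was -0.49 with a minimum of 5, -0.39 thinned to 1500, -0.17 without Ivl and -0.28 without cells with a Dcn or Acta2 UMI. Of 144 alternative values for single members and shares of cells, 66 stayed within the interval, 77 moved and 1 changed direction, Krt15 in uroplakin-positive cells of P at -0.18 with a minimum of 2 UMIs. No paired analysis was possible because each condition has 1 library, and the spread between cultures, mice and preparations cannot be told apart from the effect of the medium.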
